A study of Rattus norvegicus with 12 samples.

Results

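Among 8 hippocampal small RNA libraries from rats given ethanol, 3 held far more miR-10b-5p than the other 5. The classes were defined by the measured miR-10b-5p level alone. A library with a miR-10b-5p level above 100 CPM (estimated counts per 1000000 counts of the library) was placed in the high class, and the remaining ethanol libraries in the low class. This gave 3 high libraries (ethanol rats 3, 4 and 24) and 5 low libraries (ethanol rats 7, 8, 15, 16 and 23) of 12 libraries in all, the other 4 being vehicle libraries (rats 9, 10, 19 and 20). These classes are not groups of the study, which compared ethanol with vehicle to find miRNAs affected by a first high dose. All 12 animals were adult male Sprague Dawley rats at postnatal day 70 to 80. The ethanol rats received 4 g/kg by intraperitoneal injection, vehicle rats received saline, and tissue was taken 3 h after the injection. Each library was made from the right hippocampus of 1 rat according to the labels, whereas the paper names the dorsal hippocampus. The tissue was whole, so all cell types in it contributed. In such bulk samples, fewer cells of a type and less RNA per cell cannot be told apart.

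MiRNAs are short RNAs that guide silencing proteins to messenger RNAs, mainly through pairing of bases 2 to 8, the seed. The miR-10 genes lie inside Hox gene clusters and are transcribed with them along the body axis, so miR-10 is best known from spinal cord, hindbrain and trunk tissues, and forebrain usually holds little. Each precursor yields a 5p and a 3p arm, and for miR-10 the 5p arm is the abundant product.

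The mature miR-10 sequences are shown because the class rule rests on telling miR-10b from its close relative miR-10a, with miR-100-5p as a member of the related miR-99/100 family. Sequences are from RefSeq (rat assembly GRCr8), written 5′ to 3′ with the seed in capitals.
miR-10a-5p: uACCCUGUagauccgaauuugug
miR-10b-5p: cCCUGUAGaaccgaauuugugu
miR-10a-3p: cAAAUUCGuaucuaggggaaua
miR-10b-3p: aCAGAUUCgauucuaggggaa
miR-100-5p: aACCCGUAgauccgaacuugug
The annotated miR-10b-5p begins 2 bases later than miR-10a-5p, so the listed seeds are offset copies of a common stretch. Over the 21 bases that the 5p arms have in common they differ at 1 base, U10A (the miR-10a base first, counted from 1 at the 5′ end of miR-10b-5p). The longest run that miR-10a-5p has in common with miR-100-5p is 11 bases, against 5 for miR-10b-5p. In GRCr8, miR-10a-5p lies at chr10:81779730-81779752 on the plus strand, and its gene stands between Hoxb5 and Hoxb4. Mature miR-10b-5p lies at chr3:80035886-80035907 on the plus strand, inside the span of Hoxd4 and before Hoxd3.

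Levels of miR-10b-5p in the high libraries were 160, 168 and 290 CPM in rats 3, 4 and 24. In the low libraries they were 19.2, 16.3, 25.3, 41.1 and 22.5 CPM in rats 7, 8, 15, 16 and 23. In the vehicle libraries they were 6.02, 30.1, 14.6 and 18.2 CPM in rats 9, 10, 19 and 20. The low ethanol libraries thus overlapped the vehicle libraries, and the high libraries lay above both. The member just above the threshold was rat 3 and the library just below it was rat 16, a 3.89-fold gap that no library fell into. Class means were 206 ± 72.8 CPM (SD, n = 3) and 24.9 ± 9.68 (SD, n = 5), an 8.27-fold difference that the rule itself set and that is given without a test. The estimated counts behind these levels were 331, 398 and 974 in the high libraries and between 37.6 and 119 in the low libraries. Rat 24 held the most miR-10b-5p by either measure.

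**Figure D1:**
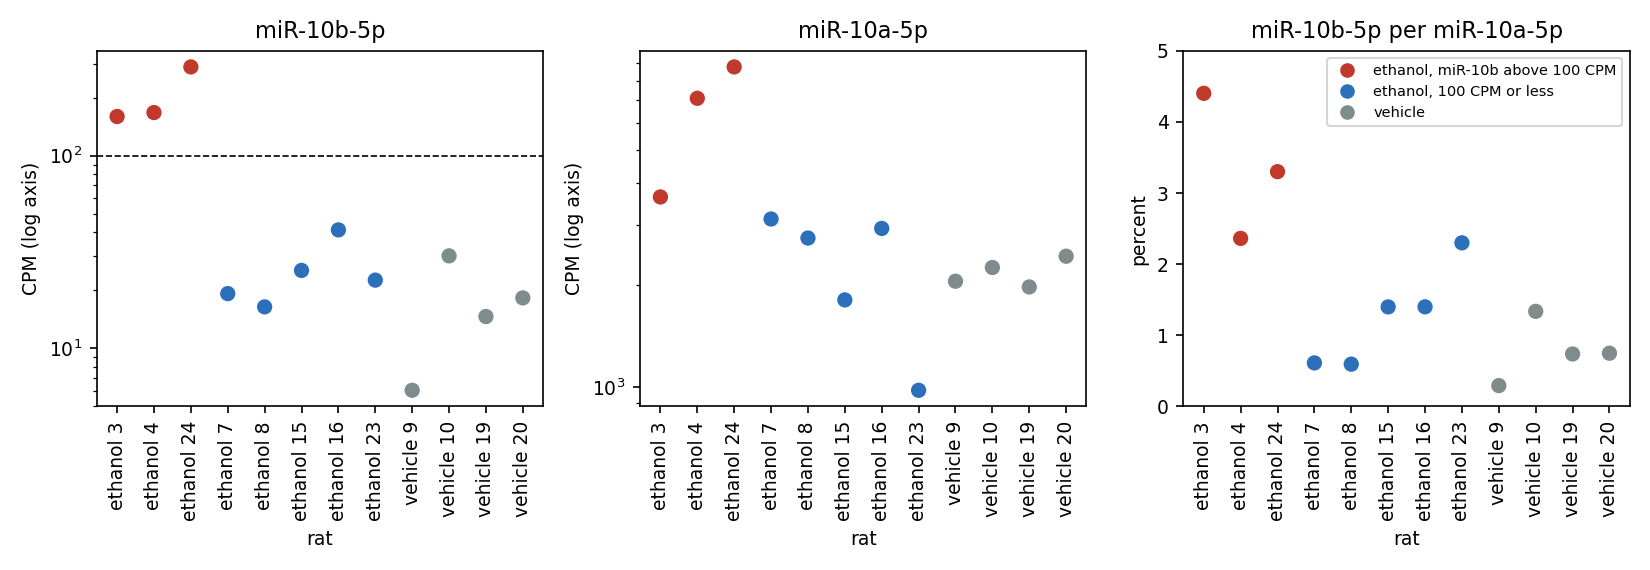
Level of miR-10b-5p (left) and miR-10a-5p (middle) in CPM on log axes, and miR-10b-5p as a percent of miR-10a-5p (right), for each of the 12 rats, with the dashed line at the 100 CPM threshold. The 3 high libraries exceed all other libraries in each panel, by a wide margin for miR-10b-5p and by a narrow one for the percent.

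The abundant member of the family in this tissue was miR-10a-5p, at 3634, 7098 and 8780 CPM in high rats 3, 4 and 24. It stood at 3129, 2750, 1808, 2936 and 979 CPM in low rats 7, 8, 15, 16 and 23, and at 2052, 2253, 1974 and 2431 CPM in vehicle rats 9, 10, 19 and 20. The same 3 libraries were therefore the highest for miR-10a-5p, but rat 3 exceeded low rat 7 by only 1.16-fold. Means were 6504 ± 2624 CPM (SD, n = 3) in the high class and 2320 ± 905 (SD, n = 5) in the low class, a 2.80-fold difference. Within its library, miR-10a-5p ranked between 23 and 38 by level in the high libraries and between 45 and 81 in the low libraries, while miR-10b-5p ranked between 128 and 161 and between 246 and 305.

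The level of miR-10b-5p was not a fixed part of that of miR-10a-5p. As a percent of miR-10a-5p it was 4.40%, 2.36% and 3.30% in high rats 3, 4 and 24, and 0.612%, 0.594%, 1.40%, 1.40% and 2.30% in low rats 7, 8, 15, 16 and 23. In the vehicle libraries it lay between 0.293% and 1.34%. The percents of rats 4 and 23 were thus nearly equal, although rat 4 had 7.45-fold the miR-10b-5p level of rat 23. Counts of miR-10b-5p were fractional in every library, and whether some of its reads were shared with miR-10a-5p was not tested.

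The other products of the Hox clusters were at or near 0 in every class. The 3p arm of miR-10b had 0, 3 and 1 counts in high rats 3, 4 and 24 and at most 2 in any low library, and miR-10a-3p had at most 1 count in any library. The summed level of miR-196a, miR-196b, miR-196c and miR-615, which also lie in Hox clusters, was at most 1.19 CPM in a high library, 0.834 in a low library and 0.407 in a vehicle library. A floor of 3 counts stood at 0.610 to 1.53 CPM in the 12 libraries and, without molecular identifiers on the reads, covers counting error alone, so differences in these products were not detectable at this depth.

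Library totals were 2071127, 2371071 and 3362627 counts in high rats 3, 4 and 24 and ranged from 1960704 to 3598771 in the low libraries. The mean log2 total differed by -0.13 between high and low (two-sided exact permutation test over the 56 ways to choose 3 of 8, p = 0.625; the smallest p it allows is 0.0179). No pair of ethanol libraries agreed within sampling noise, the lowest chi-square per degree of freedom being 37.9. Neuronal miR-124-3p and miR-9a-5p, defining markers of brain tissue, were present in all 8 libraries, at 2413 to 3632 and 19808 to 24645 CPM.

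The high libraries did not stand together across the remaining miRNAs. The root mean square log2 difference between libraries was 0.459 to 0.619 among the 3 pairs of high libraries, 0.466 to 0.746 among the 10 pairs of low libraries and 0.438 to 0.704 among the 15 pairs of a high with a low library. These ranges overlapped almost entirely. Of the high libraries, rat 3 lay farthest from the mean of the low class for 206 of 399 miRNAs (51.6%), rat 4 for 101 and rat 24, the library richest in miR-10b, for 92.

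High and low libraries were then compared over the miRNAs with at least 10 counts in at least 3 of the 8 ethanol libraries. With the miR-10a and miR-10b arms left out, 399 miRNAs were tested, and 0 of them had passed through the high class alone. The edgeR quasi-likelihood test, adjusted by the Benjamini-Hochberg method, called 0 of 399 (0%) at an adjusted p under 0.05, with a lowest adjusted p of 0.594. At an unadjusted p under 0.05 it gave 27 miRNAs (6.77%), of which 16 (4.01%) were higher and 11 (2.76%) were lower in the high libraries. This count was 14, 15, 53 and 16 without rat 3, 4, 24 and 15. DESeq2's Wald test called 1, miR-135b-5p, and limma-trend called 0, with 22 and 23 at an unadjusted p under 0.05. Over all 399, 201 miRNAs were higher and 198 lower in the high libraries, with a median log2 fold change of 0.000039. The scaling factors of the fit (TMM) place the middle of the fold changes near 0, so this balance is no separate result. With library totals alone the median was 0.032. The median SE, the standard error of the fold change, was 0.163, and 5 had an absolute log2 fold change over 1. Levels did not overlap between the classes for 11 miRNAs (2.76%) that were higher and 3 (0.752%) that were lower in all 3 high libraries. For any miRNA, 1 of the 56 ways to choose 3 of 8 libraries picks its 3 highest and 1 picks its 3 lowest. Some miRNAs without overlap are thus to be found under any split, and lack of overlap is given below as a description. The exact permutation p was 0.0179, the smallest it allows, for 9 of the 399, and it is likewise given below as a description.

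**Figure D2:**
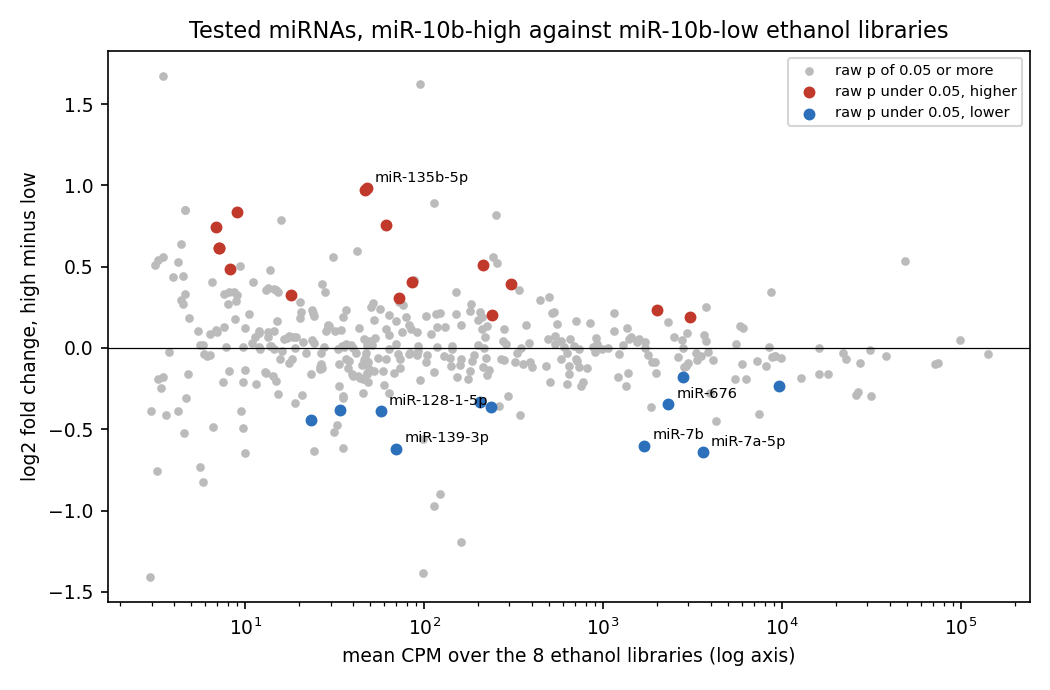
Log2 fold change (high minus low, from edgeR) against mean CPM over the 8 ethanol libraries on a log axis, 1 point per tested miRNA. Points with an unadjusted p under 0.05 (16 higher in red, 11 lower in blue) lie among the rest rather than apart from it, and the 6 smallest p are named.

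The miRNAs with the smallest p in each direction are described next as what accompanied miR-10b in these 8 libraries. For each of them the adjusted p was 0.594 or 0.654 in edgeR's quasi-likelihood test, so none of the differences passed. Mature sequences are given for the miRNA with the smallest p in each direction, for 2 blood miRNAs and miR-676, and for the pairs that have a seed in common.
miR-135b-5p: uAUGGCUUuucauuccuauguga
miR-142-5p: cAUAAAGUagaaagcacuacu
miR-144-3p: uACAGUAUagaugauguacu
miR-7a-5p: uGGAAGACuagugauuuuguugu
miR-7b: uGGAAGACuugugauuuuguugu
miR-676: cCGUCCUGagcuugucgagcua
miR-212-3p: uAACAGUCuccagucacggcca
miR-132-3p: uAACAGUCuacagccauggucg
The seed GGAAGAC is common to miR-7a-5p and miR-7b, and AACAGUC to miR-212-3p and miR-132-3p. RefSeq gave a sequence for 370 of the 399 tested miRNAs.

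The smallest p belonged to miR-135b-5p, which has a close relative in miR-135a. Its level was 86.2, 65.7 and 58.1 CPM in high rats 3, 4 and 24, and 45.7, 37.6, 24.2, 36.8 and 28.1 CPM in low rats 7, 8, 15, 16 and 23. Vehicle rats 9, 10, 19 and 20 had 38.2, 29.1, 20.9 and 22.2 CPM. All 3 high libraries thus exceeded every low and every vehicle library. The log2 fold change from edgeR was 0.98 (SE 0.24, unadjusted p = 0.00255, exact permutation p = 0.0179), and with any library left out it stayed between 0.86 and 1.13. DESeq2's Wald test gave an adjusted p of 0.0422, against 0.0656 to 0.988 under the other alternatives, the highest without rat 3. Counts of miR-135b-5p were fractional in all 8 libraries. The relative miR-135a-5p, named after its values were seen, had 116, 106 and 49.6 CPM in the high libraries and 74.7 to 129 CPM in the low libraries, a log2 fold change of -0.04 (SE 0.31).

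In the miR-7 family, which is enriched in neurons and neuroendocrine cells, miR-7a-5p and miR-7b had a lower level in the high libraries. The smallest p in that direction belonged to miR-7a-5p. Levels of miR-7a-5p were 2276, 2311 and 3585 CPM in high rats 3, 4 and 24, and 3690, 3389, 4182, 4818 and 4595 CPM in low rats 7, 8, 15, 16 and 23. Rats 3 and 4 lay below all other libraries, whereas rat 24 lay above low rat 8. Vehicle rats ranged from 3163 to 5178 CPM. The log2 fold change was -0.64 (SE 0.16, unadjusted p = 0.00298, exact permutation p = 0.0357), and it ranged from -0.85 without rat 24 to -0.47 without rat 3. For miR-7b the levels were 1162, 1006 and 1760 CPM against 1462 to 2395 CPM, with a log2 fold change of -0.60 (SE 0.19, unadjusted p = 0.0116). The exact permutation p of miR-7b was 0.0714. Its classes overlapped through rat 24 as well, and counts of both miRNAs were fractional in all 8 libraries. Their sequences are nearly the same, and whether reads were shared between them was not tested. The 3p arms miR-7a-1-3p and miR-7a-2-3p, named after their values were seen, had log2 fold changes of -0.09 (SE 0.15) and -0.07 (SE 0.27).

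Among miRNAs induced by neuronal activity, both arms of miR-212 had a lower level in the high libraries at an unadjusted p under 0.05. For miR-212-3p the levels were 215, 169.5 and 227 CPM in the high libraries and 204 to 279 CPM in the low libraries (log2 fold change -0.36, SE 0.12, unadjusted p = 0.0146). For miR-212-5p they were 183.5, 172 and 182 CPM against 173 to 250 CPM (log2 fold change -0.33, SE 0.12, unadjusted p = 0.0218). Low rat 8 reached the high libraries for both arms. The exact permutation p was 0.0714 for miR-212-3p and 0.0893 for miR-212-5p. For miR-132-3p, which is made from the same transcript, the log2 fold change was -0.08 (SE 0.13.) Whether miR-212 and miR-132 differed from each other was not tested.

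The other miRNAs lower in the high libraries were miR-676, miR-139-3p, miR-128-1-5p, miR-22-5p, miR-92b-3p and miR-455-3p, with log2 fold changes from -0.62 for miR-139-3p to -0.23 for miR-92b-3p. In 3 of them the classes did not overlap, each by a narrow margin. They are all of the 3 among 399 tested miRNAs (0.752%) that were lower without overlap. These were miR-128-1-5p, a minor arm of neuronal miR-128 (53.2 CPM at most in a high library, 53.5 at least in a low one), miR-22-5p (23.8 and 24.0 CPM) and miR-455-3p (33.7 and 34.2 CPM). All 4 vehicle libraries lay on the side of the low libraries for miR-22-5p, and 3 of 4 for the other 2. The main arm of miR-128, miR-128-3p, named after its values were seen, had a log2 fold change of -0.08 (SE 0.12).

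The miRNAs with a higher level in the high libraries included several that mark blood and vessels. For miR-142-5p, a miRNA of white blood cells and microglia, the levels were 420, 355 and 325 CPM in high rats 3, 4 and 24 and 262, 309, 236, 303 and 249 CPM in low rats 7, 8, 15, 16 and 23. The classes did not overlap, but 2 of 4 vehicle libraries lay on the side of the high ones, and the log2 fold change was 0.40 (SE 0.15, unadjusted p = 0.025). Its other arm, miR-142-3p, had 21.7, 21.5 and 19.6 CPM against 14.2 to 17.3 CPM (log2 fold change 0.33, SE 0.14, unadjusted p = 0.0395). For miR-144-3p, a red blood cell miRNA, levels were 88.4, 68.3 and 48.8 CPM against 20.9 to 56.9 CPM (log2 fold change 0.97, SE 0.39, unadjusted p = 0.0362). The exact permutation p was 0.0357 for miR-142-5p, 0.0179 for miR-142-3p and 0.0536 for miR-144-3p. For miR-144-3p, low rat 16 lay above high rat 24. Its cluster mate miR-451-5p, named after its values were seen, had 214, 143 and 129 CPM against 33.3 to 166 CPM. Both of its p-values were above 0.05 (edgeR unadjusted p = 0.121, exact permutation p = 0.0893).

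Over the list of 9 blood cell miRNAs, 8 were listed in the files and 7 were tested. All 7 had a higher fitted level in the high libraries, with a median log2 fold change of 0.40, and 3 had an unadjusted p under 0.05, where 4.01% of all tested miRNAs did so in that direction. Those 3 were both arms of miR-142 and miR-144-3p, and arms of the same miRNA are not independent. The most abundant of the list, miR-150-5p of lymphocytes, had 691, 561 and 529 CPM against 478 to 552 CPM (log2 fold change 0.15, SE 0.12). Their summed level ranged from 1074 to 1464 CPM in the high libraries, from 816 to 1126 in the low libraries and from 966 to 1126 in the vehicle libraries. The vascular list of 7 miRNAs, markers of endothelium and of contractile mural cells, had 6 tested members. All 6 had a higher fitted level, with a median of 0.45, and 3 had an unadjusted p under 0.05, beside the same 4.01%. The 6 are arms of miR-126a, miR-143 and miR-145, and miR-143 and miR-145 lie in the same cluster, so these members are not independent. Their summed level was 69924, 67414 and 55632 CPM in high rats 3, 4 and 24 against 31741 to 58766 in the low libraries and 38837 to 46812 in the vehicle libraries. Low rat 8 lay within the range of the high libraries. The lists were chosen with earlier results of these data known, and the part of vessel and blood content in the other differences was not tested.

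Of the vascular miRNAs, miR-143-3p carried most of the sum, with 66657, 64132 and 52842 CPM in high rats 3, 4 and 24. Low rats 7, 8, 15, 16 and 23 had 47931, 55992, 31302, 41068 and 29449 CPM, so that rat 8 exceeded rat 24. The log2 fold change was 0.53 (SE 0.24, unadjusted p = 0.0518). Its partner in the same cluster, miR-145-5p, had 289, 279 and 228 CPM against 132 to 222 CPM, without overlap with the low or the vehicle libraries (log2 fold change 0.51, SE 0.21, unadjusted p = 0.0422). Endothelial miR-126a-5p had 2284, 2365 and 2042 CPM against 1743 to 1967 CPM. Its classes did not overlap, but 2 of 4 vehicle libraries lay on the side of the high ones (log2 fold change 0.23, SE 0.10, unadjusted p = 0.0489). The other arm, miR-126a-3p, named after its values were seen, had 643, 581 and 495 CPM against 405 to 543 CPM. Its classes overlapped (log2 fold change 0.22, SE 0.15). For miR-145-3p, named in the same way, the log2 fold change was 0.39 (SE 0.48). Exact permutation p was 0.0714 for miR-143-3p, 0.0536 for miR-145-5p and 0.0179 for miR-126a-5p. For miR-143-5p the log2 fold change was 0.84 (SE 0.36), from 13 counts at least in a library.

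**Figure D3:**
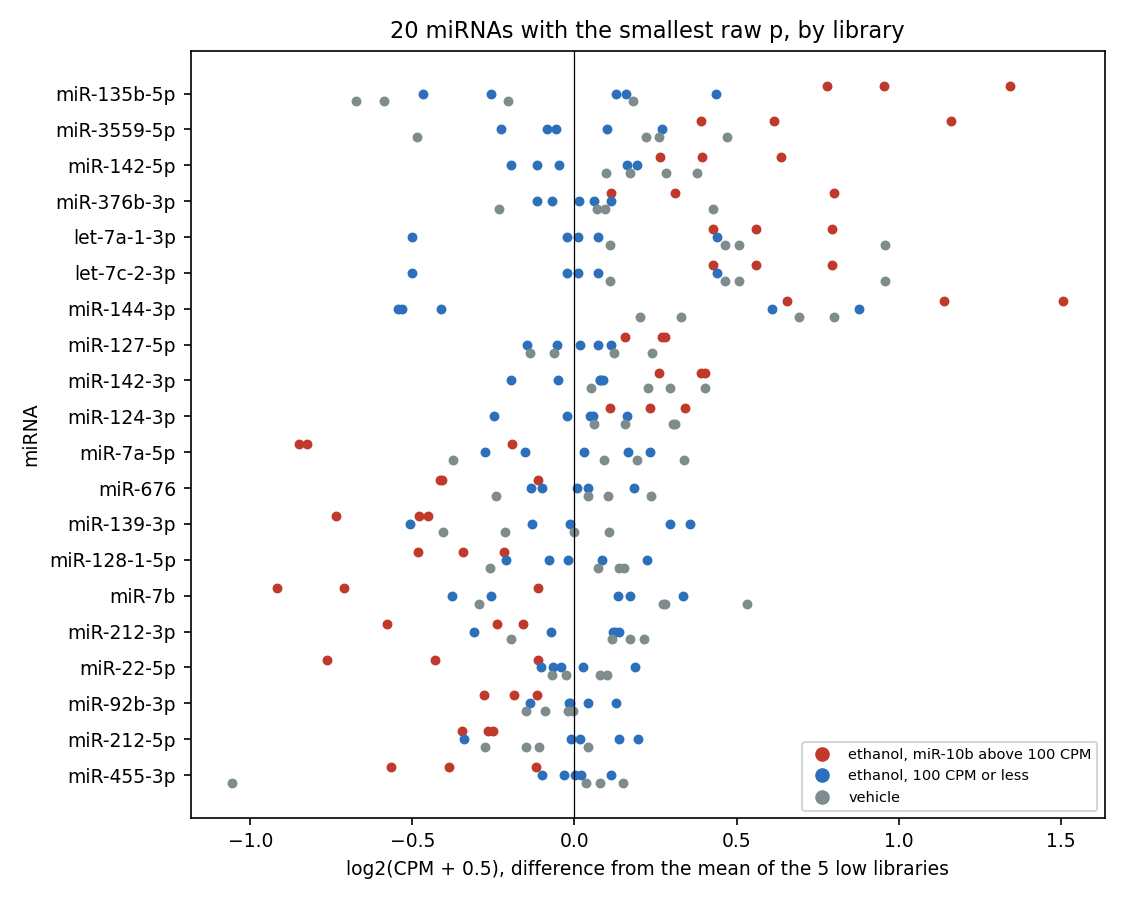
Difference of log2(CPM + 0.5) from the mean of the 5 low libraries, for the 10 miRNAs with the smallest p in each direction, with 1 point per library and classes offset vertically. High libraries (red) lie to the right in the upper rows and to the left in the lower rows, and for most rows they overlap the low (blue) or the vehicle (grey) libraries.

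The remaining miRNAs at the head of the higher direction came from several sources. From the imprinted cluster came miR-376b-3p (132, 93.6 and 81.5 CPM against 69.5 to 81.6) and miR-127-5p (269, 249 and 271 CPM against 201.5 to 241). Their log2 fold changes were 0.40 and 0.20. Other members of that cluster went in either direction. The other arm of miR-127, miR-127-3p, named after its values were seen, was lower, at -0.29 (SE 0.16). Neuronal miR-124-3p had 3632, 3091 and 3370 CPM against 2413 to 3207, a log2 fold change of 0.19 (SE 0.08, edgeR unadjusted p = 0.0399, exact permutation p = 0.0714). The low-count miR-3559-5p had 12.6, 8.4 and 7.1 CPM against 4.5 to 6.5. The arms let-7a-1-3p and let-7c-2-3p had identical values in all 8 libraries and 1 sequence in RefSeq, so they are 1 measurement counted under 2 names (log2 fold change 0.61, SE 0.24).

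No member of the list of miR-10 relatives, the miR-99, miR-100 and miR-125 families, was higher in the high libraries. All 10 tested members had a lower fitted level, between -0.29 and -0.06 on the log2 scale, and 0 had an unadjusted p under 0.05. Several are arms of the same miRNA, and miR-99b and miR-125a lie close together on chromosome 1, so these members are not independent. The summed level of the list was 61823, 64505 and 43175 CPM in high rats 3, 4 and 24, within the low range of 40951 to 73774. The level of miR-100-5p was 6798, 6816 and 3812 CPM in high rats 3, 4 and 24 against 4103 to 7706 CPM, and that of miR-99b-5p was 26104, 29542 and 16039 CPM against 14777 to 33746 CPM. Rat 24, the richest in miR-10b-5p, was thus the lowest of the 8 for miR-100-5p, with low rat 23 next to it.

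Markers of choroid plexus and ciliated cells, which border the hippocampus in the ventricle, did not separate the classes. Of 11 tested members 2 had a higher and 9 a lower fitted level, with a median log2 fold change of -0.41, and 0 had an unadjusted p under 0.05. Their summed level was 19263, 54811 and 46063 CPM in high rats 3, 4 and 24 and ranged from 20555 to 78806 in the low libraries. For miR-204-5p, the most abundant, the direction turned from -0.30 to 0.053 without rat 3. Muscle miRNAs were summed to 319, 278 and 191 CPM in the high libraries and to between 149 and 320 in low rats 7, 8, 15 and 23, but to 1739 in low rat 16. Their median log2 fold change of -1.08 (4 tested, 0 with an unadjusted p under 0.05) contained that library, and for miR-133b-3p the value went from -1.19 to 0.25 without it.

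**Figure D4:**
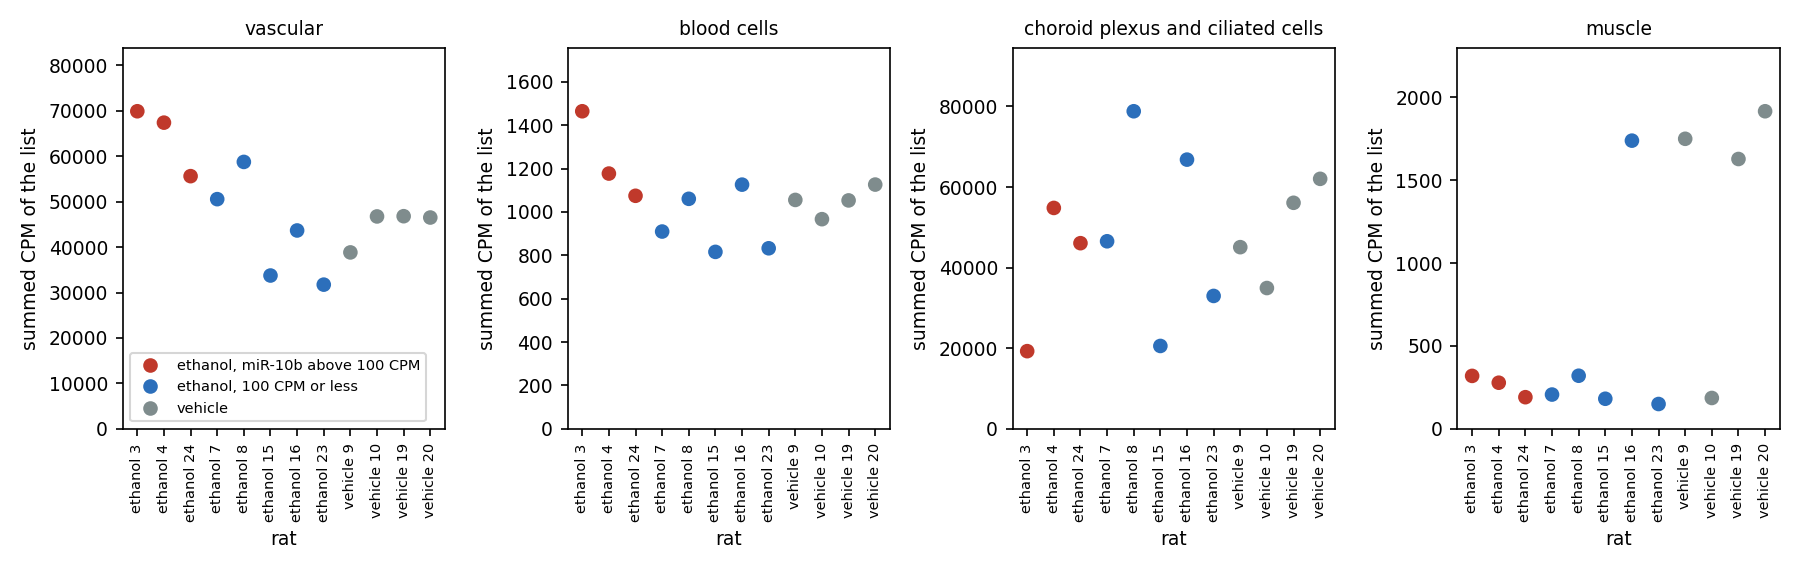
Summed CPM of the vascular, blood cell, choroid plexus and ciliated cell, and muscle lists in each of the 12 rats, on axes that start at 0. The vascular and blood sums are highest in high rats 3 and 4, choroid plexus sums spread widely within each class, and muscle sums set apart low rat 16 and 3 vehicle rats.

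For the remaining lists, the counts of members with an unadjusted p under 0.05 stand beside 4.01% higher and 2.76% lower over all tested miRNAs, and they are given as descriptions. Of 8 forebrain neuron miRNAs 4 had a higher and 4 a lower fitted level (median -0.02), and miR-124-3p alone had an unadjusted p under 0.05. Of 5 tested oligodendrocyte miRNAs, 1 was higher and 4 were lower (median -0.19), with miR-338-3p at -0.19 and a standard error of 0.20. Of 4 tested inflammation miRNAs 3 were higher and 1 was lower (median 0.05), and miR-146b-5p differed by -0.01 (SE 0.09.) The 4 activity-induced members were all lower (median -0.20), 2 of them with an unadjusted p under 0.05, both from miR-212. Of 2 tested liver and gut miRNAs, miR-192-5p differed by -0.02 (SE 0.08.) In the list of epithelial, pituitary and sensory miRNAs, 4 of 7 tested members were higher and 3 lower (median 0.18), with fitted values from -0.90 for miR-375-3p (SE 0.57) to 1.67 for miR-96-5p, both named after their values were seen. Those with an unadjusted p under 0.05 were miR-7a-5p and miR-7b, both lower.

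The most positive fold changes of all came from a sensory and pineal cluster in that list, and these miRNAs were named after their values were seen. The level of miR-183-5p was 262, 191 and 43.4 CPM in high rats 3, 4 and 24 and 31.1, 110, 16.7, 84.5 and 17.2 CPM in low rats 7, 8, 15, 16 and 23. Rats 3 and 4 were the highest of the 8, but rat 24 lay within the low range, and vehicle rat 20 had 239 CPM. Its log2 fold change was 1.62 (SE 0.75, exact permutation p = 0.125). For miR-96-5p the log2 fold change was 1.67 (SE 1.10), and for miR-182 it was 0.31 (SE 0.56). The level of miR-96-5p was 10.6, 8.0 and 0.30 CPM in high rats 3, 4 and 24. In low rats 7, 8, 15, 16 and 23 it was 0, 3.8, 0.56, 4.5 and 0 CPM. High rat 24 and low rats 7, 15 and 23 thus lay under the floor of 3 counts, and the fold change rested on few counts.

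Of the 5 most abundant miRNAs, miR-143-3p had the log2 fold change of 0.53 given with the vascular list. Those of the other 4 were -0.03 for miR-181a-5p, 0.05 for miR-30a-5p, -0.09 for miR-26a-5p and -0.10 for miR-26b-5p. For miR-30a-5p the levels were 103048, 101328 and 101918 CPM in high rats 3, 4 and 24, all above the low range of 93584 to 100074 CPM. The fitted difference was within its standard error of 0.06. Its exact permutation p, on library totals, was 0.0179, and its edgeR unadjusted p, with TMM factors, was 0.482.

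Of the 12 miRNAs that the study listed as affected by ethanol, 11 were tested here, with 7 higher and 4 lower in the high libraries (median 0.01). The 1 member with an unadjusted p under 0.05, where 4.01% of all tested miRNAs were higher at that threshold, was miR-29b-5p, at 11.6, 9.7 and 8.9 CPM in high rats 3, 4 and 24 and 9.2, 6.1, 6.7, 6.9 and 6.4 CPM in low rats 7, 8, 15, 16 and 23 (log2 fold change 0.48, SE 0.20, edgeR unadjusted p = 0.0418, exact permutation p = 0.0357). Vehicle rats 9, 10, 19 and 20 had 11.6, 12.5, 8.1 and 11.6 CPM, so the high libraries lay nearer to the vehicle libraries than 4 of the 5 low ones did. The study chose this list on samples that include these. For miR-433-3p, the most abundant of the list, the log2 fold change was -0.06 (SE 0.09.)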

How the data were processed

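Size-selected small RNA of 12 rat hippocampi was sequenced. For each rat the authors deposited expected counts, that is estimated counts, of 753 miRNAs, not scaled to library size and partly fractional. Cutadapt, Partek and the build rn5 are named in the submitters' processing notes, and the counting method and miRNA annotation are not given in the sources used here. Estimated counts were rounded for testing. CPM was the count divided by the library total. The 8 ethanol libraries were classed at 100 CPM of miR-10b-5p, and miRNAs with 10 counts in at least 3 of the 8 were compared with edgeR 4.0.16 in R 4.3.3 (TMM factors, quasi-likelihood test, no covariate, Benjamini-Hochberg adjustment over 399 miRNAs). They held at least 99.1% of each library's counts. Exact permutation tests used log2(CPM + 0.5). Vehicle libraries entered no test except in 1 alternative. DESeq2 1.42.0 and limma 3.58.1 were alternatives. Since the classes come from the readout, p-values describe what accompanied miR-10b in these libraries and no effect of treatment.

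Named miRNAs were the miR-10 arms, the 10 with the smallest p in each direction, the 5 most abundant, and of each list the most abundant tested member and any with an unadjusted p under 0.05. Exceptions are marked. For miR-486 and miR-215 of the lists no value was found under that name. The classes, lists and named miRNAs were chosen with earlier results of these data known. Sequences were matched by mature name to RefSeq (GRCr8). Libraries were multiplexed, and which were run together is not given in the sources used here.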

Additional observations from a re-analysis of the deposited data

Results flagged for a closer look

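Levels of the named miRNAs, of the miR-10 arms and the library total were examined for a library far from the rest of its class, among the 5 low and the 4 vehicle libraries. Of 84 such groups 7 held one, where about 4.2 arise by chance (1 in 20); the 3 high libraries are too few for this check. Numbers in parentheses are the gap to the nearest library as a share of the class range on the log2 scale.

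Among low libraries, miR-99b-5p was lowest in rat 23, at 14777 CPM against 27774 to 33746 in the others (0.764). High rat 24 had a similar level of 16039 CPM. For miR-146b-5p, low rat 8 was lowest at 24842 CPM against 31138 to 33204 (0.779). For miR-29b-5p, low rat 7 was highest at 9.2 CPM against 6.1 to 6.9 (0.712), which lies between high rats 24 and 4.

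Among vehicle libraries, rat 10 was lowest for miR-455-3p, at 17.4 CPM against 37.6 to 40.7 (0.906), below every high library although the other vehicle libraries lay with the low ones. Rat 10 was also lowest for miR-133b-3p, at 59.3 CPM against 585 to 699 (0.927). Vehicle rat 9 was lowest for miR-143-3p, at 36179 CPM against 43446 to 43954 (0.940), and for its cluster partner miR-145-5p, at 135 CPM against 202 to 218 (0.843).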

How the results depend on the processing

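The number of miRNAs called at an adjusted p under 0.05 was 0 in edgeR's test. It remained 0 under 20 of the 21 other settings, including each ethanol rat left out in turn (0 to 0). DESeq2's Wald test gave 1. The exact permutation test is among the 20, but its 0 says nothing about the classes. Its p cannot be below 0.0179, so none could pass adjustment unless a large share of the tested miRNAs reached that p, and 9 did. At an unadjusted p under 0.05, the main count of 27 was 16 with miR-10b as a continuous covariate and from 14 to 53 with each rat left out. The log2 difference in library total ran from -0.33 to 0.021 with each rat left out, turning without rat 3. Of 39 named miRNAs, 34 kept their direction under all 21 settings. The others were close to 0 or rested on 1 library. With each rat left out, miR-181a-5p ran from -0.13 to 0.038, miR-192-5p from -0.081 to 0.039, miR-146b-5p from -0.10 to 0.076, miR-204-5p from -0.65 to 0.053 and miR-133b-3p from -1.44 to 0.25. With library totals alone, miR-192-5p was 0.0098 and miR-146b-5p 0.019. In the exact permutation test, on library totals, miR-181a-5p was 0.0024, miR-192-5p 0.0091 and miR-146b-5p 0.024. With miR-10b as a continuous covariate, the slope of miR-146b-5p was 0.0086. The causes were not tested. No paired analysis was possible because no replicate number is shared between groups in the labels. With 3 libraries against 5, no exact permutation p can be below 0.0179.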
